A study of Mus musculus with 30 samples.

Results

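Neutrophils carry their antimicrobial proteins in granules that are made in a fixed order. The early (azurophil) granules are filled with myeloperoxidase and serine proteases while the cell is still a dividing promyelocyte, and the later (specific and gelatinase) granules are filled with lactoferrin, cathelicidin and lipocalin as it matures. The mature cell keeps large amounts of the calcium-binding proteins S100A8 and S100A9 in its cytosol. In mice these cells are made in the bone marrow and, unlike in adult humans, also in the red pulp of the spleen. The 10 genes of this program followed here were chosen by name, with earlier results of these data known. They include the early granule genes Mpo, Elane and Prtn3 (3 genes) and the later granule genes Camp, Ltf, Ngp and Lcn2 (4 genes). The others are S100a8, S100a9 and Retnlg, whose products are cytosolic or secreted (3 genes). All 10 were found among the 48709 genes of the count tables.

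The tables came from RNA-seq of brain, kidney, liver, quadriceps muscle and spleen of adult C57BL/6 mice. In each tissue 3 wild-type (WT) libraries were compared with 3 libraries of mice lacking 1 functional copy of Ctcf (Ctcf+/-, called Het below), the gene of a DNA-binding protein that anchors chromatin loops. The title of the series names Ctcf haploinsufficiency and intron retention as its subject, and the labels give no further treatment or age. The labels number the libraries 1 to 3 in each group but do not tie them to individual mice, so p-values measure the spread between these libraries.

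The 10 genes lie on 6 mouse chromosomes (GRCm38, Ensembl release 86 annotation). Prtn3 (chr10:79874476-79883174, plus strand, proteinase 3) and Elane (chr10:79886312-79888216, plus strand, neutrophil elastase) follow each other with 3137 bases between them. Mpo (chr11:87793581-87804413, plus strand) encodes myeloperoxidase, the enzyme that makes hypochlorous acid from hydrogen peroxide. Camp (chr9:109847379-109849617, minus strand, the cathelicidin precursor), Ngp (chr9:110419747-110423012, plus strand, neutrophilic granule protein, related to the cathelicidins) and Ltf (chr9:111019271-111042767, plus strand, the iron-binding lactoferrin) are separated by 570.1 and 596.3 kb. S100a8 (chr3:90668978-90670035, plus strand) and S100a9 (chr3:90692632-90695721, minus strand) lie 22.6 kb apart, and their products form the heterodimer calprotectin. Lcn2 (chr2:32384633-32388252, minus strand) encodes lipocalin 2, which binds bacterial siderophores. Retnlg (chr16:48872608-48874498, plus strand) encodes a resistin-like secreted protein. Of the exon bases of Prtn3, 159 are shared with the neighbouring gene Plppr3, and of those of Mpo, 512 are shared with Gm11505. Reads there cannot be assigned by an unstranded count, so the levels of both genes are uncertain to that extent.

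The promoters of 5 of the genes are shown because the values below are given for the early and the later granule genes apart. Each window is the 250 bases before the RefSeq start site (build GRCm38.p6), written on the strand of the gene. Capitals mark 4 short motifs that were chosen after the windows had been read: GAGGAAGT, the type bound by the Ets factor PU.1, AACGG, the type bound by Myb, TATAAG, which resembles the TATA box, and TTGGGCAA, close to the palindrome bound by C/EBP factors. Both strands were searched, so that TTGCCCAA marks a TTGGGCAA on the other strand. The windows are Mpo at chr11:87793534-87793783, Elane at chr10:79886062-79886311, Prtn3 at chr10:79879417-79879666, Ltf at chr9:111019042-111019291 and Ngp at chr9:110419558-110419807, all on the plus strand.
Mpo: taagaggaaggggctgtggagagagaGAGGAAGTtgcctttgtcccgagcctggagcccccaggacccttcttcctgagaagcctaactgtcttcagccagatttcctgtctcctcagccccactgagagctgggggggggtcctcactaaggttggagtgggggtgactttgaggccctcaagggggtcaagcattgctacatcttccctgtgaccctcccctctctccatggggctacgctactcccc
Elane: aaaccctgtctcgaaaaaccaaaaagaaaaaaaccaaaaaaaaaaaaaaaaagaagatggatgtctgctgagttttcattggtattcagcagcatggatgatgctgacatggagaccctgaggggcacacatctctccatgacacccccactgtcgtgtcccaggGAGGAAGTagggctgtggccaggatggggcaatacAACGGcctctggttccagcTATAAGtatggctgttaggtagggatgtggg
Prtn3: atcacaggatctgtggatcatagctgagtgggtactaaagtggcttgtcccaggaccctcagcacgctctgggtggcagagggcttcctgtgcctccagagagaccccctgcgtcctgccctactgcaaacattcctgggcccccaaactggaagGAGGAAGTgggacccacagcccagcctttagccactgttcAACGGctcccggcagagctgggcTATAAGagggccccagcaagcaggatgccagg
Ltf: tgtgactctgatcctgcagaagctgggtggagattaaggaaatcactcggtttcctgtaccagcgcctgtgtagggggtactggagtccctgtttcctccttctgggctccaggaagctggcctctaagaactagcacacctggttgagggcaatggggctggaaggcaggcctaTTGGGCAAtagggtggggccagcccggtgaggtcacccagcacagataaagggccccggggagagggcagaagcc
Ngp: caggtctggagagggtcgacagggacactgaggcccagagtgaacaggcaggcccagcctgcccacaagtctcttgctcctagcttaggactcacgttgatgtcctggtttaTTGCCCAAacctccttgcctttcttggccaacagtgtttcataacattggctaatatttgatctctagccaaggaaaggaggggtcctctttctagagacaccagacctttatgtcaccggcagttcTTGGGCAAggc

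GAGGAAGT was found on the gene's own strand in the 3 early genes, beginning 224 bases before the start of Mpo, 85 before that of Elane and 95 before that of Prtn3. Among the other 7 genes S100a8 held it on the opposite strand. Of 32851 promoter windows of 300 bases in the RefSeq table (250 bases before each start and 50 after it), 3.2% held it on either strand. Elane and Prtn3 shared more than that motif: AACGG followed at 50 and 55 bases before the start and TATAAG at 31 and 32 bases. These 3 motifs in this order on the gene's strand were found in 2 of the 32851 windows, those of Elane and Prtn3. AACGG alone was found in 17.4% of the windows and TATAAG alone in 7.43%. TTGGGCAA stood 75 bases before the start of Ltf, and Ngp held it 11 bases before its start and, on the opposite strand, 138 bases before it, against 0.828% of all windows. It was found in 2 of the 10 genes, and Camp and Lcn2, the other later granule genes, did not hold it. The looser C/EBP pattern TTNNGNAA, which includes TTGGGCAA, was found in 6 of the 10 genes and in 40.7% of all windows. A match describes the letters of these windows and is not evidence of a bound factor. The marked motifs were chosen after the printed windows had been read, so the shares of all windows are no test of these matches. The RefSeq start of Prtn3 lies 5191 bases inside the start of its Ensembl gene model, so its window falls within that model. The RefSeq starts of Mpo (87793784), Ltf (111019292) and Ngp (110419808) also lie inside their models, which begin at 87793581, 111019271 and 110419747. Parts of those windows therefore fall within the models.

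Libraries held 49.8 to 131.6 M counted fragments (M is 1000000; spleen 77.9 to 91.4 M), so that 3 counts correspond to 0.0228 to 0.0602 CPM (counts per 1000000 fragments). Levels are given as CPM, scaled within each tissue by TMM factors, and as CPM per kilobase of exon (FPKM) where genes are compared with each other. Ctcf was lower in every Het than in every WT library of its tissue: 40.9 to 44.4 against 66.5 to 71.7 CPM in brain, 32.9 to 39.6 against 58.0 to 63.9 in kidney, 13.4 to 19.6 against 25.8 to 27.4 in liver, 19.3 to 23.5 against 29.3 to 34.3 in muscle and 105 to 154 against 176 to 229 in spleen. All 4 marker genes chosen for brain, kidney, liver and muscle, and all 8 B and T cell markers for spleen, were higher in every library of their own tissue than in any library of the others. Traces of other organs differed between the spleen groups and between the muscle groups. The summed level of 4 liver genes (Alb, Apoa1, Cyp2e1 and Ttr) was 29.3 to 37.6 CPM in the WT spleens and 0.0900 to 0.344 CPM in the Het spleens, and that of 4 kidney genes (Umod, Kap, Slc34a1 and Nphs1) was 0.132 to 0.379 CPM in WT and 9.69 to 20.4 CPM in Het. All 4 liver genes were called lower and 2 kidney genes higher in the Het spleens (edgeR). The log2 difference was -8.65 ± 0.49 for Alb (adjusted p 0.0111), -5.77 ± 0.45 for Ttr (0.0174), -7.24 ± 0.86 for Apoa1 (0.0388) and -4.35 ± 0.48 for Cyp2e1 (0.0317), and it was 12.9999 ± 0.77 for Kap (0.0237) and 10.82 ± 0.79 for Umod (0.0318). In muscle the 4 kidney genes summed to 8.49, 62.3 and 8.37 CPM in WT and 0, 0.0115 and 4.96 CPM in Het, with 0 of the 3 tested called and 2 at an unadjusted p under 0.05. Their part in the results on spleen and muscle was not tested.

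The spleen was the main site of all 10 transcripts. S100a9 read 1243, 199 and 263 CPM in the 3 WT spleens and 1667, 932 and 701 CPM in the 3 Het spleens, and its highest value in any of the 24 other libraries was 4.84 CPM. Ngp read 502, 122.9 and 87.5 CPM in the WT spleens and 1073, 484 and 494 CPM in the Het spleens, with at most 2.59 CPM elsewhere. Mpo, although lower, read 19.6, 8.10 and 8.64 CPM in WT and 27.8, 15.6 and 17.8 CPM in Het spleens, with at most 0.384 CPM elsewhere. For 9 of the 10 genes the lowest spleen library lay above the highest library of any other tissue, by a factor of 1.73 for Prtn3 and 19.4 to 63.6 for the other 8. The exception was Lcn2, whose lowest spleen level (32.9 CPM, WT 3) lay just under that of the liver library WT 1 (33.8 CPM).

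**Figure D1:**
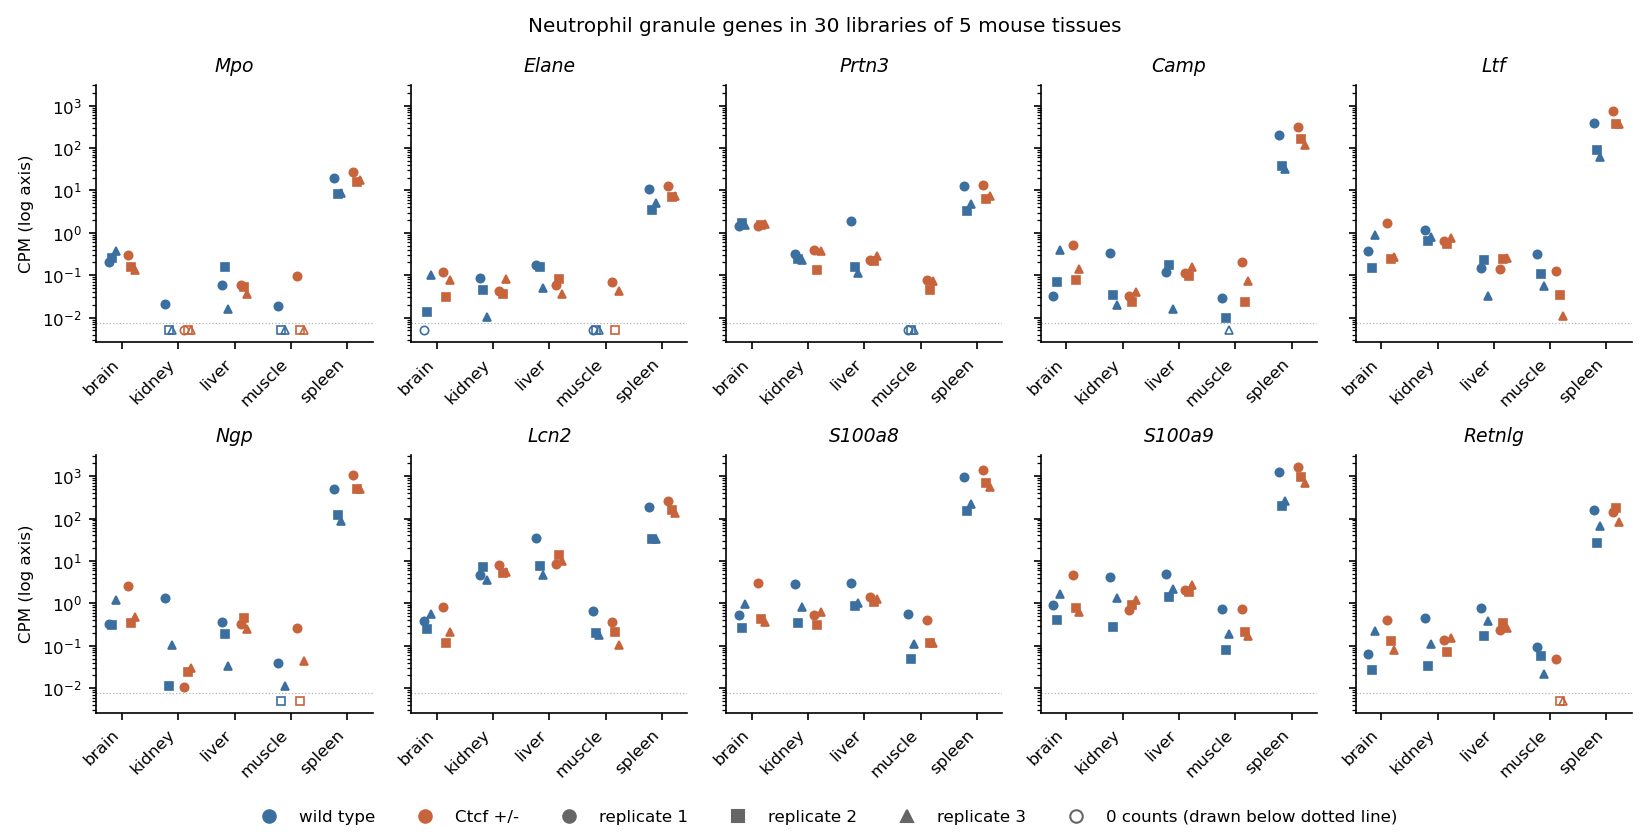
Level (CPM, log axis) of each of the 10 genes in each of the 30 libraries, by tissue. Blue is wild type and orange Ctcf+/-, symbol shape gives the replicate number, and open symbols under the dotted line are libraries with 0 counts. The spleen libraries lie above the other tissues for 9 genes, Lcn2 stays at 3.604 CPM or more in kidney and liver, and Prtn3 stays at 1.42 to 1.71 CPM in brain.

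In the 15 WT libraries edgeR's quasi-likelihood test gave each gene as higher in spleen than in the mean of the other 4 tissues. The log2 difference was 9.67 ± 0.68 (SE) for Ngp, 9.55 ± 0.61 for Camp, 8.48 ± 0.47 for Ltf, 8.48 ± 0.59 for S100a8, 8.41 ± 0.50 for Retnlg and 8.24 ± 0.63 for S100a9. It was 7.74 ± 0.41 for Mpo and 7.57 ± 0.53 for Elane, and it was smaller for Prtn3 (5.06 ± 0.70) and Lcn2 (4.81 ± 0.52). The adjusted p-values (edgeR, Benjamini-Hochberg) ran from 2.45e-10 for Mpo to 2.37e-05 for Prtn3. Of all 22933 genes tested, 38.0% were called higher in spleen. The filter on low counts was met by all 10 genes in spleen and by 4 to 8 of them in the other tissues, so the count of 10 is not read as support, and the labels do not say whether libraries of different tissues came from the same mice. The split of all calls depended on scaling: 8725 genes were called higher and 8645 lower with TMM factors, and 11354 and 6331 with library totals, where the median of all genes moved from -0.21 to 0.46. Each of the 10 genes was called higher in spleen under both.

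Between genes, the order of levels per length in the spleen set the cytosolic proteins first and the early granule genes last. Over the 6 spleen libraries S100a9 averaged 1598 FPKM and was the highest of the 10 in each of them, S100a8 averaged 940 FPKM, and Ngp 377 FPKM. Camp (189 FPKM), Retnlg (179 FPKM), Ltf (97.98 FPKM) and Lcn2 (51.2 FPKM) came next. Elane (8.45 FPKM), Mpo (4.74 FPKM) and Prtn3 (4.59 FPKM) were far lower, and the 3 together made up 0.412% to 0.991% of the summed FPKM of the 10 genes. The ranges of neighbours in this order overlapped, down to Lcn2 (from 12.5 FPKM) and Elane (up to 13.9 FPKM). Within each spleen library, however, Lcn2 lay above Elane, as 12.5 against 5.42 FPKM in WT 3 and 99.8 against 13.9 FPKM in Het 1.

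Outside the spleen the order of tissues was not the same for all genes. By WT mean Elane, Lcn2, S100a8, S100a9 and Retnlg shared the order liver, kidney, brain, muscle. Mpo and Prtn3 shared another order, and so did Camp and Ngp. Mpo came second in brain (0.284 ± 0.091 CPM, SD, n = 3 WT), above each WT liver, kidney and muscle library, and was at 0 counts in 5 of 6 kidney libraries. For Elane, Camp, Ngp, S100a8, S100a9 and Retnlg the WT ranges of neighbouring tissues after spleen overlapped throughout. Lcn2 in WT was 15.4 ± 16.1 CPM in liver and 5.10 ± 1.77 CPM in kidney, ranges that overlapped, and the kidney range lay above those of brain (0.398 ± 0.159 CPM) and muscle (0.341 ± 0.262 CPM). Ltf came second in kidney (0.877 ± 0.272 CPM), where its range overlapped that of brain (0.474 ± 0.377 CPM).

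Lcn2, which is also made by epithelial cells and hepatocytes, was not in proportion to the other granule genes in kidney and liver. Its kidney levels were 4.64, 7.05 and 3.604 CPM in WT and 7.99, 5.17 and 5.597 CPM in Het, while Ngp was 1.34, 0.0113 and 0.102 CPM in WT and 0.0106, 0.0240 and 0.0304 CPM in Het. The kidney library with the most Ngp (WT 1) was the second lowest in Lcn2. Lcn2 made up 30.1% to 81.2% of the fragments of the 10 genes in kidney and 55.0% to 75.8% in liver, against 4.205% to 5.54% in spleen. The ratio of Lcn2 to Ngp in CPM was 0.244 to 0.376 in the 6 spleens, 3.45 to 757 in the kidneys and 26.4 to 145 in the livers. Lcn2 is also used as a marker of kidney injury and of the acute phase of the liver, so both lists were read beside it. The 4 kidney injury genes summed to 1636, 1707 and 1597 CPM in the WT kidneys and 2422, 2118 and 2327 CPM in the Het kidneys, most of it from Spp1 (osteopontin); 2 of the 4 had positive and 2 negative log2 differences, 0 were called and 2 had an unadjusted p under 0.05 (edgeR; 6.44% of all tested genes in kidney did), and the Lcn2 ranges of WT and Het kidneys overlapped. The 7 acute phase genes summed to 5044, 4217 and 2907 CPM in the WT livers and 2808, 3313 and 2797 CPM in the Het livers, so that WT 1 was the highest library for these genes as for Lcn2. Of the 7, 0 were called and 1 had an unadjusted p under 0.05 (edgeR; 4.56% of all tested genes in liver did). Their part in the Lcn2 levels was not tested.

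Prtn3 stood apart in brain. It read 1.48, 1.71 and 1.53 CPM in WT and 1.42, 1.51 and 1.59 CPM in Het, the narrowest spread of any of the 10 genes in that tissue. Elane, next to it and with the same motif order in its promoter, read at most 0.117 CPM there, and Mpo at most 0.384 CPM. Plppr3, a neuronal membrane protein gene that shares exon bases with Prtn3 and was added after its values were seen, read 62.9 to 79.5 CPM in brain, 3.29 to 4.41 CPM in kidney, 0.719 to 1.79 CPM in liver and 5.13 to 15.04 CPM in spleen. Whether brain fragments counted for Prtn3 belong to Plppr3 was not tested. In spleen Prtn3 followed Elane (12.7, 3.32 and 4.82 CPM in WT and 13.2, 6.24 and 7.53 CPM in Het, against 10.8, 3.44 and 4.99 CPM and 12.8, 7.10 and 7.54 CPM for Elane), so the brain pattern was not seen there.

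**Figure D2:**
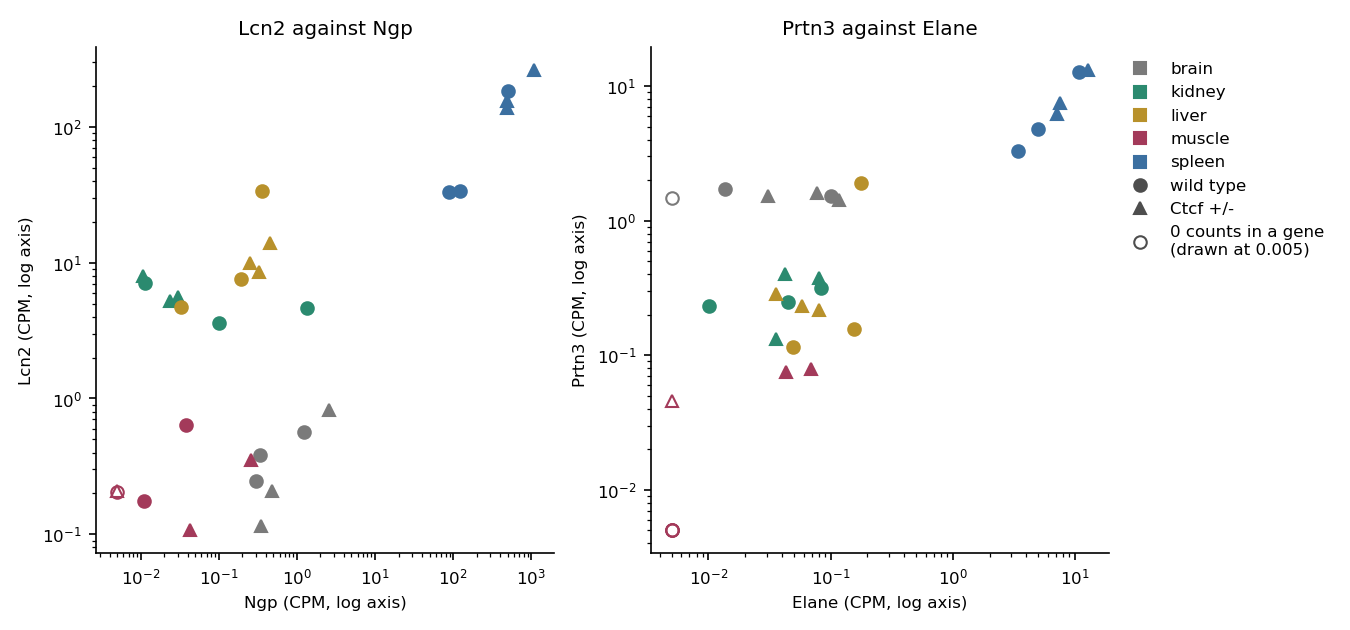
Level (CPM, both axes log) of Lcn2 against Ngp and of Prtn3 against Elane in the 30 libraries, coloured by tissue, with circles for wild type and triangles for Ctcf+/-; open symbols at 0.005 are libraries with 0 counts of a gene. The spleen points lie together at the top right of both panels, kidney and liver hold Lcn2 with little Ngp, and brain holds Prtn3 with little Elane.

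In the 4 other tissues the library that was highest within its group was often the same for many of the 10 genes. In brain S100a8 read 0.540, 0.261 and 0.989 CPM in WT and 2.94, 0.428 and 0.363 CPM in Het: Het 1 was the highest Het library for 9 of the 10 genes, and WT 3 the highest WT library for 9. In kidney S100a9 read 4.15, 0.270 and 1.30 CPM in WT and 0.686, 0.910 and 1.18 CPM in Het, and WT 1 was the highest WT library for 9 of the 10 genes. In liver S100a8 read 3.01, 0.887 and 1.02 CPM in WT and 1.43, 1.06 and 1.30 CPM in Het, WT 1 was the highest WT library for 7 of the genes, and the 3 Het libraries were the highest for 2, 4 and 4. The liver library WT 1 was also high in Lcn2 (33.8 CPM, against 4.73 to 13.9 in the other 5) and in Prtn3 (1.92 CPM, against 0.115 to 0.285). In muscle S100a9 read 0.720, 0.0775 and 0.186 CPM in WT and 0.749, 0.207 and 0.171 CPM in Het. Replicate 1 was the highest Het library for all 10 genes. It was also the highest WT library for each of them except Elane and Prtn3, which had 0 counts in every WT library. In each case for which CPM values are given here the WT and Het ranges overlapped.

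The red cell globins, which mark blood left in a tissue, were read beside the 10 genes in these tissues. The 4 globin genes summed to 213, 341 and 329 CPM in the WT brains and 236, 303 and 338 CPM in the Het brains, so that Het 1 was the second lowest of 6. In kidney WT 1 (1812 CPM) lay inside the range of the others (1737 to 3172 CPM), as did liver WT 1 (897 CPM, range 542 to 1583 CPM). In muscle WT 1 was the highest (278 CPM) of a range that began at 110.5 CPM, while Het 1 (212 CPM) lay below Het 2 (215 CPM). The part of residual blood in the levels of the 10 genes was not tested.

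The first question of the design, whether the genes differed between Het and WT, was asked in each tissue separately. None of the genes was called by edgeR's quasi-likelihood test at an adjusted p under 0.05 in any tissue. In brain 8 genes passed the filter on low counts (not Elane and Retnlg), and 0.0157% of all tested genes were called; in kidney 6 passed (not Mpo, Elane, Camp and Ngp), with 0.0211% called. In liver 7 passed (not Mpo, Elane and Camp), with 0.0193% called, in muscle 4 passed (Lcn2, S100a8, S100a9 and Ltf), with 0.0249% called, and in spleen all 10 passed, with 0.242% called. The number of genes with an unadjusted p under 0.05 was also 0 in each tissue, where 3.52% of all tested genes in spleen, 6.45% in muscle, 6.44% in kidney, 4.56% in liver and 2.96% in brain had one. DESeq2 and limma-voom called 0 as well. WT and Het libraries overlapped for every gene that passed the filter, where 6.64% of all tested genes in spleen and 7.83%, 11.4%, 8.99% and 12.2% in brain, kidney, liver and muscle had groups that did not overlap.

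In spleen the Het mean lay above the WT mean for all 10 genes, and the 4 later granule genes had the highest estimates, which were not tested against those of the other members. Ngp was 238 ± 230 CPM (SD, n = 3) in WT and 684 ± 337 CPM (n = 3) in Het, a log2 difference of 1.53 ± 0.71 (SE) with an unadjusted p of 0.0696 and an adjusted p of 1 (edgeR). Ltf read 386, 88.8 and 62.9 CPM in WT and 753, 366 and 371 CPM in Het, a log2 difference of 1.47 ± 0.72. Of these 6 values WT 1 was the highest WT library and lay between Het 1 and the other 2 Het libraries, while WT 2 and WT 3 lay below all Het libraries. Lcn2 read 182, 33.8 and 32.9 CPM in WT and 262, 156 and 138 CPM in Het (log2 difference 1.16 ± 0.71). Camp read 203, 37.5 and 32.6 CPM in WT and 307, 160 and 118 CPM in Het (1.10 ± 0.76). The pattern was the same in both: WT 2 and WT 3 were lowest, and WT 1 was above Het 2 and Het 3.

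The cytosolic and secreted members had log2 differences of 0.66 to 0.99. S100a8 read 940, 152 and 218 CPM in WT and 1359, 686 and 560 CPM in Het, a log2 difference of 0.99 ± 0.73, and S100a9 one of 0.95 ± 0.73. Retnlg read 160, 26.7 and 66.1 CPM in WT and 143, 174 and 82.6 CPM in Het, a log2 difference of 0.66 ± 0.62; it was the only member whose highest spleen library was Het 2. Those of the early genes were 0.75 ± 0.40 for Mpo, 0.51 ± 0.46 for Elane and 0.38 ± 0.54 for Prtn3, and in each of them WT 2 was the lowest library and Het 1 the highest. The median log2 difference of the 10 genes was 0.97, and that of all 18615 genes tested was -0.0044. Adjusted p-values were 1 for each of the 10 (edgeR).

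**Figure D3:**
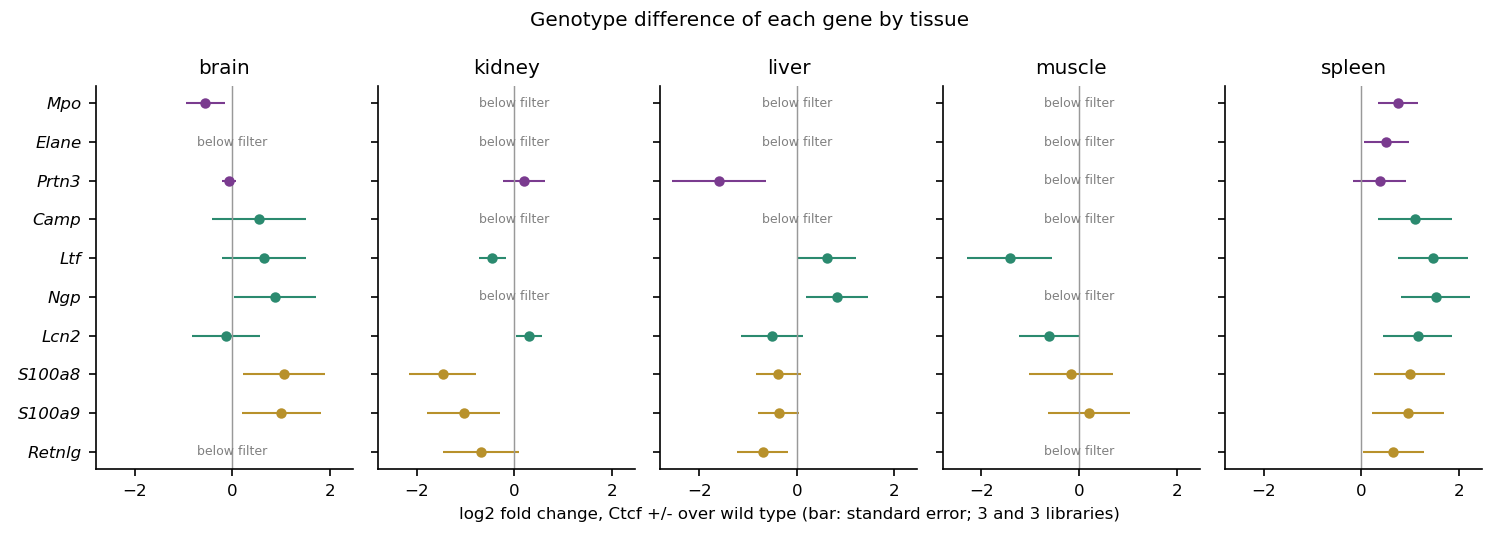
Log2 fold change of Ctcf+/- over wild type for each gene in each tissue, from edgeR, with its standard error as a bar (3 and 3 libraries); genes under the filter on low counts are marked. In spleen all 10 estimates are above 0, from 0.38 (Prtn3) to 1.53 (Ngp), and in the other tissues they lie on both sides of 0.

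The size of these differences changed with the libraries included. Without the WT 1 spleen the log2 difference was 2.70 for Ngp, 2.71 for Ltf, 2.48 for Camp, 2.47 for Lcn2, 2.23 for S100a8, 2.25 for S100a9, 1.52 for Retnlg, 1.28 for Mpo, 1.11 for Elane and 1.14 for Prtn3. Leaving out Het 1, WT 2 or WT 3 moved the differences given here the other way. Without Het 1 they were 1.04 for Ngp, 1.04 for Ltf, 0.62 for Camp, 0.51 for S100a8, 0.52 for S100a9 and -0.01 for Prtn3. Without WT 2 they were 0.71 for Camp, 0.53 for S100a9, 0.22 for Retnlg, 0.19 for Elane and 0.02 for Prtn3, and without WT 3 they were 0.70 for Camp, 0.61 for S100a9 and 0.17 for Prtn3. No gene was called with any 1 library left out, and the lowest adjusted p among these fits was 0.141 (edgeR, Lcn2).

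Between tissues the direction of the estimates was mixed. In brain 5 of the 8 tested genes had a positive and 3 a negative log2 difference (median 0.60), from -0.55 ± 0.40 for Mpo to 1.06 ± 0.85 for S100a8. In kidney 2 of 6 were positive (median -0.57), from -1.47 ± 0.68 for S100a8 (unadjusted p 0.0607, adjusted p 0.807 in edgeR) to 0.30 ± 0.27 for Lcn2. In liver 2 of 7 were positive (median -0.38), with Prtn3 at -1.59 ± 0.96 and Ngp at 0.82 ± 0.64. In muscle 1 of 4 was positive (median -0.39), with Ltf at -1.42 ± 0.88 and Lcn2 at -0.61 ± 0.62. Kidney marker genes were higher in the WT than in the Het muscle libraries, and highest in WT 2. Ltf and Lcn2 read 0.317 and 0.643 CPM in muscle WT 1 and 0.107 and 0.203 CPM in WT 2. The part of kidney traces in the muscle levels of both genes was not tested. The medians of all tested genes were between -0.01 and 0.00 in these 4 tissues. A test over all 30 libraries of whether the genotype difference depended on the tissue called none of the 10 (edgeR, 0.758% of 24262 genes called), with the lowest p for Prtn3 (0.0249, adjusted 0.576) and Ngp (0.0305, adjusted 0.618). Of the 24262 genes 1617 had an unadjusted p under 0.05 in it. DESeq2 was not run for this test; limma-voom called 0 as well. In the muscle libraries, where Prtn3 fell under the filter and was not tested, it had 0 counts in each WT library and 8, 4 and 7 counts in the Het libraries, and Elane had 0 in WT and 7, 0 and 4 in Het.

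Variation between spleen libraries was shared by the 10 genes. The highest of the 6 libraries exceeded the lowest 3.43-fold for Mpo, 3.71-fold for Elane and 3.97-fold for Prtn3, and 6.53-fold (Retnlg) to 12.3-fold (Ngp) for the other 7. Among the WT spleens WT 1 was the highest library for all 10 genes, and among the Het spleens Het 1 was the highest for 9. As a description over 6 libraries that share their normalization, Pearson's r of log2 CPM over the 45 gene pairs ran from 0.760 (Ngp with Retnlg) to 0.999 (Ltf with Ngp), with a median of 0.954. Spearman's rho ran from 0.543 to 1, and the 3 early genes ordered the 6 libraries identically. Without WT 2 and WT 3, the 2 libraries farthest from the median, r ran from 0.036 (Mpo with Retnlg) to 0.9995 (Ltf with Ngp), with a median of 0.848, so the weaker relations rested on those libraries.

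The balance of later to early genes differed between libraries. The summed FPKM of Camp, Ltf, Ngp and Lcn2 exceeded that of Mpo, Elane and Prtn3 by 34.7, 23.6 and 13.5 times in the WT spleens and by 54.1, 48.7 and 40.7 times in the Het spleens. The lowest Het ratio lay above the highest WT ratio. Of single genes tested in spleen 6.64% had groups that did not overlap, in either direction. No such share was computed for ratios of summed genes. The ratio is a description of a score built from the members, and no test was made of it. The early sum was 24.8, 8.02 and 10.7 FPKM in WT and 29.6, 15.9 and 17.7 FPKM in Het, and the late sum was 860, 189 and 145 FPKM in WT and 1601, 773 and 721 FPKM in Het. Within WT the library with the highest sums, WT 1, also had the highest ratio. In whole tissue fewer cells of a type and less RNA per cell cannot be told apart.

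**Figure D4:**
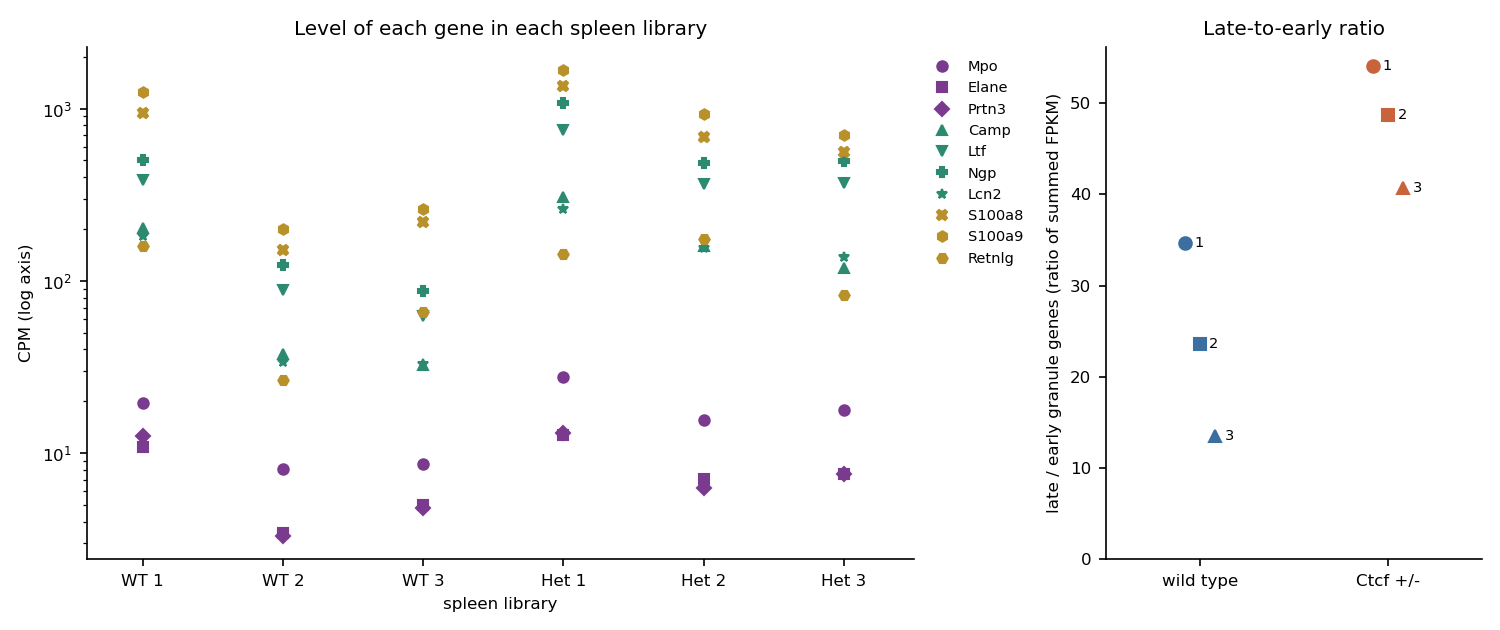
Left, level (CPM, log axis) of each gene in each of the 6 spleen libraries, with early granule genes in purple, later granule genes in green and cytosolic or secreted members in ochre. Right, ratio of the summed FPKM of the 4 later to the 3 early granule genes per library, 13.5 to 34.7 in wild type and 40.7 to 54.1 in Ctcf+/-.

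Other genes of the neutrophil program were taken from lists chosen by name, with earlier results of these data known. Their values come from the same libraries as those of the 10 members, so they are not separate support. Of 10 further late granule genes 0 were called in spleen, and all 10 had a positive log2 difference (median 1.12), with 3 at an unadjusted p under 0.05 (edgeR), against 3.52% of all tested genes in spleen. Mmp8, neutrophil collagenase, read 26.7, 10.4 and 9.76 CPM in WT and 74.9, 28.4 and 34.5 CPM in Het, so that its groups did not overlap (log2 difference 1.56 ± 0.53, p 0.0224, adjusted p 1 in edgeR). Of all tested genes in spleen 6.64% had groups that did not overlap. Cd177, a neutrophil surface glycoprotein, had a log2 difference of 1.20 ± 0.59, and Chil3, a chitinase-like protein, one of 1.18 ± 0.63. The 6 further early granule genes had 3 positive and 3 negative differences (median 0.33), and 0 were called or had an unadjusted p under 0.05. Of these Ctsg, the granule protease cathepsin G, differed by 0.88 ± 0.47, Prss57, a serine protease, by 0.83 ± 0.49 and Ms4a3, a gene of granulocyte precursors, by 0.66 ± 0.52. The other 3 (Igsf6, Ctsc and Serpinb1a) had differences between -0.21 and 0.00.

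Genes of the mature neutrophil had log2 differences from -0.68 to 1.67 in spleen. Of 13 such genes 10 had a positive and 3 a negative difference (median 0.16). Of these 13, 0 were called and 2 had an unadjusted p under 0.05 (edgeR), against 3.52% of all tested genes in spleen. Ly6g, the surface antigen used to sort mouse neutrophils, read 10.7, 2.16 and 2.28 CPM in WT and 24.8, 11.6 and 11.8 CPM in Het (log2 difference 1.67 ± 0.70, p 0.0490, adjusted p 1 in edgeR). Its groups did not overlap, as for 6.64% of all tested genes in spleen. Mmp9, gelatinase B, differed by 0.75 ± 0.49, and Cxcr2, the receptor that draws neutrophils to chemokines, by 0.01 ± 0.44. Csf3r, the receptor for the growth factor G-CSF, read 227, 75.7 and 76.5 CPM in WT and 119, 121 and 134 CPM in Het, a log2 difference of -0.02 ± 0.44. In these receptor genes WT 1 was the highest of the 6 libraries, whereas for Mpo, Ngp and S100a9 Het 1 was.

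Among 9 transcription factor genes of the granulocyte lineage 0 were called or had an unadjusted p under 0.05 in spleen, and the median log2 difference was 0.03 (6 positive, 3 negative). Cebpe, which drives the late granule genes, read 12.6, 3.71 and 4.04 CPM in WT and 19.7, 17.6 and 10.3 CPM in Het (log2 difference 1.23 ± 0.53, p 0.0535, adjusted p 1 in edgeR), with WT 1 inside the Het range. Gfi1, a repressor needed for neutrophil development, differed by 0.30 ± 0.19, and Cebpa, which commits progenitors to the lineage, by 0.15 ± 0.31. Spi1, which encodes PU.1, differed by -0.09 ± 0.29 and Myb by 0.03 ± 0.20. In the other 4 tissues 0 of the tested genes of these 4 lists were called (edgeR). The number with an unadjusted p under 0.05 was 4 of 17 tested in muscle (6.45% of all tested genes), 6 of 28 in kidney (6.44%), 1 of 25 in liver (4.56%) and 0 of 25 in brain (2.96%).

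Markers of other cells also varied across the 6 spleen libraries. The 5 eosinophil genes summed to 156, 90.5 and 104 CPM in WT and 271, 300 and 141 CPM in Het. Epx, eosinophil peroxidase, read 8.72, 3.97 and 3.42 CPM in WT and 22.8, 20.2 and 10.01 CPM in Het (log2 difference 1.72 ± 0.46, p 0.00786, adjusted p 0.656 in edgeR), and its groups did not overlap. Prg2 (1.70 ± 0.53) and Prg3 (1.34 ± 0.56), which encode granule proteins of eosinophils, also had positive differences, while the surface receptor gene Il5ra differed by -0.32 ± 0.31 and Ccr3 by -0.02 ± 0.28. The 5 basophil and mast cell genes summed to 26.3, 12.3 and 10.04 CPM in WT and 42.5, 24.8 and 21.2 CPM in Het, with Mcpt8 at 1.18 ± 0.60, Cpa3 at 0.68 ± 0.25 and Prss34 at 1.06 ± 0.66. In both lists 0 of 5 genes were called (edgeR), 3 eosinophil genes and 1 basophil gene had an unadjusted p under 0.05, and the medians were 1.34 and 0.68. Of all tested genes in spleen 3.52% had an unadjusted p under 0.05 (edgeR), and 6.64% had groups that did not overlap.

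Genes of red cell precursors had negative differences. The 7 erythroid precursor genes summed to 5428, 5747 and 1226 CPM in WT and 1454, 4419 and 3281 CPM in Het, with all 7 log2 differences negative (median -0.45) and 0 called or under an unadjusted p of 0.05 (edgeR). Klf1, the erythroid master regulator, differed by -0.47 ± 0.77, Epor, the erythropoietin receptor, by -0.41 ± 0.72 and Alas2, the heme synthesis enzyme of red cell precursors, by -0.47 ± 0.66. WT 3 was low in both the erythroid and the granule genes, and Het 1 was low in the erythroid and highest in most granule genes. The 5 proliferation genes (Mki67, Top2a, Ccnb1, Cdk1 and Birc5) also had negative differences in all 5 (median -0.31), as did the 4 globin genes (median -0.29), with 0 called or under an unadjusted p of 0.05. In the other lists of blood cells 0 genes were called in spleen (edgeR), and the medians were 0.14 for 4 myeloid progenitor genes, 0.04 for 5 monocyte genes, -0.20 for the 5 of 6 macrophage genes that passed the filter, 0.02 for 5 megakaryocyte genes, -0.19 for 4 B cell genes and 0.14 for 4 T cell genes. In the monocyte list Ly6c2, a surface antigen that granulocytes also carry, read 98.6, 67.3 and 84.0 CPM in WT and 154, 143 and 121 CPM in Het (log2 difference 0.74 ± 0.19, p 0.00573, adjusted p 0.562 in edgeR). It was the only gene of these 6 lists with an unadjusted p under 0.05. The 3 tested kidney injury genes had a median of 1.15 and the 5 tested acute phase genes one of 0.29. In each list 0 were called and 1 had an unadjusted p under 0.05 (edgeR), against 3.52% of all tested genes in spleen. The part of these cells in the levels of the 10 genes was not tested.

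**Figure D5:**
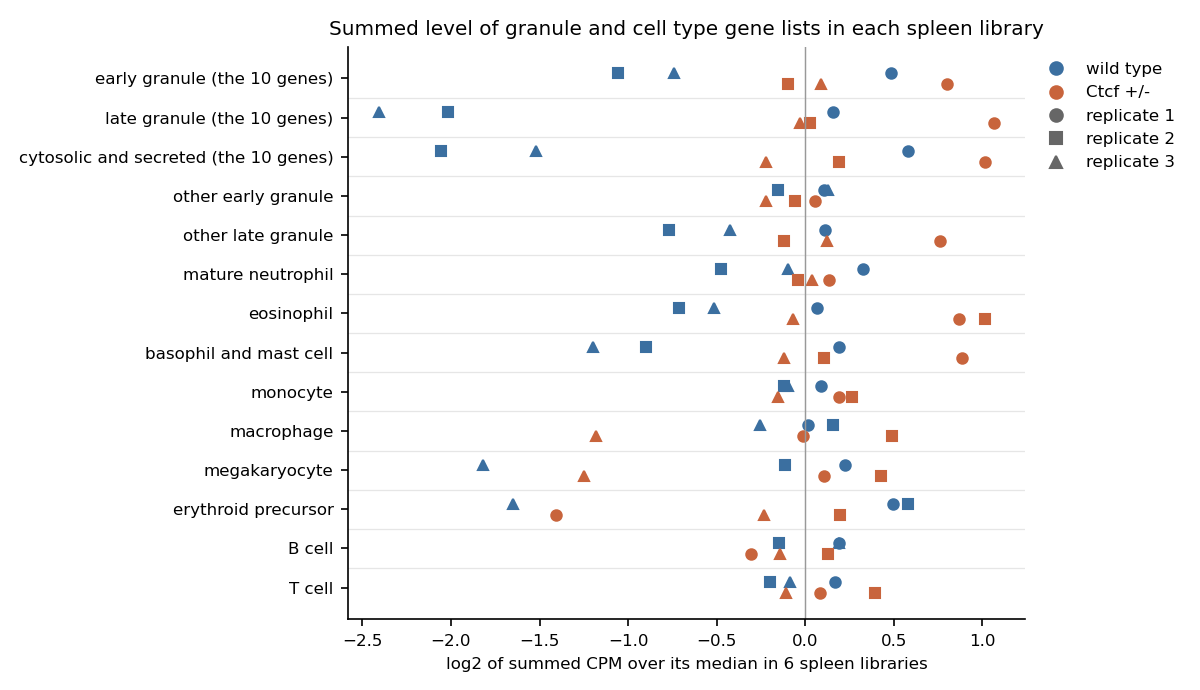
Summed CPM of the granule gene and cell type lists in each spleen library, as log2 of the ratio to the median of the 6 libraries (blue wild type, orange Ctcf+/-, symbol shape the replicate number). Among the lists drawn the late granule and cytosolic members spread over the widest range, WT 2 and WT 3 lie lowest in both, and the erythroid list has WT 3 and Het 1 lowest.

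Genes most like the 10 were found by Pearson's r of log2 CPM, among genes that averaged 1 CPM or more, as a description. Over the 6 spleen libraries the genes closest to the mean of the 3 early genes were Ifit1bl2 (r 0.996), Bmx (0.994), Fam114a1 (0.989), Upp1 (0.989) and Cep170b (0.989) of 12035 genes. Those closest to the mean of the other 7 were Wfdc21 (r 0.998), Ica1 (0.997), Chil1 (0.996), Mocos (0.992) and Cldn15 (0.992). Wfdc21 was itself on the list of late granule genes, and read 24.0, 4.49 and 5.40 CPM in WT and 35.7, 20.6 and 14.8 CPM in Het. Over all 30 libraries, where the spleen against the rest dominates any likeness, the closest to the early genes were Stat4, Apbb1ip, Pik3r5, Arhgap25 and Arl5c (r 0.965 to 0.974). The closest to the other 7 were Cd177, Chil3 and Mmp8 (r 0.988, 0.984 and 0.984), all late granule genes of neutrophils, followed by the B cell genes Fcer2a (0.974) and Tnfrsf13c (0.973).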

How the data were processed

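RNA was extracted with TRIzol and treated with a TURBO DNA-free kit, and RNA integrity numbers were over 7, per the labels' protocols. Per the file headers, the authors ran featureCounts 1.5.0-p3 over Ensembl release 86 exons (GRCm38) on read pairs, ignoring strand, and the tables hold these counts unscaled. STAR, FastQC and DESeq2 are named in the submitters' processing notes without a role. By the tool's defaults, fragments that overlap several genes or map to several places are left out. No column of values was left unused, and no 2 replicates agreed within sampling noise.

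Each tissue (3 WT and 3 Het libraries) was fitted with edgeR 4.0.16 in R 4.3.3 (quasi-likelihood F test, filterByExpr, TMM factors, Benjamini-Hochberg over all tested genes, threshold 0.05). A fit over 30 libraries tested whether the genotype difference depended on tissue, and 1 over 15 WT libraries set spleen against the other tissues. CPM uses the TMM-scaled library size of its own tissue, and FPKM divides it by the deposited exon length. For likeness 0.01 CPM was added before log2. Intervals and floors from counts cover counting error only, and scripts were tested on simulated data.

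The members and the lists were chosen with earlier results of these data known. The genes named are the 10 members, Ctcf, and of each list in spleen its counts, its first 3 genes and any gene called; other names were chosen after their values were seen. One gene of the erythroid precursor list is not reported here and is in none of that list's counts or sums. Alternatives were DESeq2 1.42.0, its size factors, library totals, 2 other filters, limma 3.58.1 voom, all 30 libraries, a replicate block and leaving out each library. Promoter windows and their coordinates are from RefSeq (GRCm38.p6). Same-numbered WT and Het libraries deviated together in brain (r 0.207, 0.383 and 0.537) and kidney (0.209, 0.190 and 0.212).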

Additional observations from a re-analysis of the deposited data

How the results depend on the processing

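The count of members called was 0 for the genotype in each tissue and for its dependence on tissue, and 10 for WT spleen against the other tissues, under all 91 alternatives. For single genes 658 alternative values kept their direction and side of the threshold, and 28 changed sign, none of them called. With the replicate block the sign changed for Lcn2 in liver (0.029) and S100a8 in muscle (0.10); with limma-voom S100a8 in muscle was 0.28, and over all 30 libraries Prtn3 in brain was 0.0074. Leaving out 1 library changed the sign of these log2 differences, given as the range over the 6 fits: in brain Lcn2 -1.32 to 0.38, S100a8 -0.54 to 1.60, S100a9 -0.49 to 1.54, Camp -0.55 to 2.09, Ngp -0.54 to 1.79, Ltf -0.82 to 1.43 and Prtn3 -0.10 to 0.0045; in kidney S100a9 -1.55 to 0.23, Retnlg -1.18 to 0.70 and Prtn3 -0.056 to 0.54; in liver Lcn2 -0.94 to 0.81, S100a8 -0.68 to 0.41, S100a9 -0.69 to 0.27 and Prtn3 -2.10 to 0.84; in muscle S100a8 -0.99 to 1.42, S100a9 -0.78 to 1.53 and Lcn2 -1.10 to 0.24; in spleen Prtn3 -0.0089 to 1.14. The libraries concerned were mostly those high in the granule genes: Het 1 in brain, WT 1 in kidney and WT 1 in liver; the cause was not tested.

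The paired fit with the replicate block changed no member call: in spleen Ngp was 1.86 and Mpo 0.83 in log2. Deviations of same-numbered spleen libraries correlated with mixed signs (-0.472, -0.227 and 0.475). Those of differently numbered spleen libraries ran from -0.671 (WT 3 with Het 2) to 0.764 (WT 1 with Het 2). Values of same-numbered libraries were all positive for muscle (0.083, 0.183, 0.271) and liver (0.051, 0.118, 0.277). Even so, WT 1 correlated more with Het 2 than with Het 1 in both (0.119 and 0.274). The block raised the muscle calls over all genes from 4 to 118 and the liver calls from 3 to 7. Whether a shared number marks a true pair was not tested. Over all genes the calls behind the background shares did change: 45 in spleen ranged from 0 (10 counts in every library, the block, or without any 1 WT library) to 250 (all 30 libraries), with 187 by DESeq2 and 97 by limma-voom. The 3 calls in brain ranged from 0 to 28, 4 in kidney from 2 to 164, 3 in liver from 1 to 73, and 4 in muscle from 1 to 229. The 184 calls of dependence on tissue ranged from 35 (without Het 1) to 265 (limma-voom). At 3 counts or fewer, as for Mpo in kidney, no difference was detectable at this depth.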
